A study of Mus musculus with 6 samples.

Results

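The cells described here are a small class of heart neutrophils that were rich in S100a8 and S100a9 transcripts but held almost none of the granule-associated transcripts Retnlg, Lcn2 and Wfdc21. They were chosen from raw counts of unique molecular identifiers (UMIs, each standing for 1 captured transcript). A member had at least 200 genes detected, at most 10% mitochondrial UMIs, at least 10 UMIs of S100a8 plus S100a9, fewer than 3 of Retnlg plus Lcn2 plus Wfdc21, and at least 2 of Acod1 plus Il1r2 plus Csf3r. It also had fewer than 10 UMIs of C1qa plus C1qb plus C1qc, fewer than 2 of Cd79a plus Cd79b, and 0 of Cd3e plus Cd3d plus Cd3g. Of 32761 cells that passed the gene and mitochondrial limits, 536 (1.64%) met this rule. Their working label was activated Acod1 Il1r2 neutrophils.

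The series profiled CD45+ cardiac cells, the leukocytes of the heart, by droplet single-cell RNA sequencing that reads transcripts at their 3' end. It asked how heart irradiation alters these cells in wild-type and STING knockout mice. All mice were C57Bl6J by title and all cells were taken at 28 days. The 3 groups were sham-treated wild type, wild type given RT of 12 Gy x 1 with a small animal microirradiator, and C57Bl6J Tmem mice with the genotype label STING KO, given the same 12 Gy. Each group had 2 libraries, numbered 1 and 2. No sham-treated STING KO library was analysed here, so the effect of radiation in that genotype could not be measured. The labels give no age, no allele and no animal numbers, and it is not stated whether the 2 libraries of 1 group represent different animals. The p-values below therefore measure only the spread between libraries, which may be technical.

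Neutrophils are short-lived granulocytes made in the bone marrow, where they fill granules with antimicrobial proteins in stages. Transcripts of granule proteins decline as the cells mature and enter tissue. There, neutrophils release S100A8 and S100A9, interleukin 1 beta (Il1b) and chemokines that draw in further leukocytes, and they shift their surface receptors as they age. Acod1 encodes the enzyme that makes itaconate from cis-aconitate in activated myeloid cells. Il1r2 encodes a decoy receptor that binds interleukin 1 without signalling, and Csf3r the receptor for granulocyte colony-stimulating factor. STING, encoded by Tmem173, relays the sensing of cytosolic DNA to type I interferon.

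The libraries held 31650962 to 59675213 UMIs in all and 3492 to 6335 kept cells each. Sham libraries 1 and 2 contributed 84 and 82 members, irradiated wild-type libraries 45 and 109, and those labelled STING knockout (below, knockout-labelled) 111 and 105. Their median depth was 1540 UMIs and 699.5 genes per cell, below the 4780 to 7987 UMIs per library of the cells outside the neutrophil gates. Summed over a library's members this gave 159017 to 392029 UMIs, so that 3 UMIs correspond to 7.65 to 18.9 counts per 1000000 of the members' own UMIs (CPM, the unit of every level below). Between libraries, 236 cell barcodes were shared, none of them by members.

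The 3 label markers were present in most members, as the rule requires in part. Il1r2 had a UMI in 95.7% of the members, Csf3r in 91.4% and Acod1 in 72.4%, and 65.3% had all 3. On the mm10 build Acod1 lies at chr14:103046977-103056573, Il1r2 at chr1:40074079-40125231 and Csf3r at chr4:126024550-126044440, all on the plus strand and all protein-coding. Acod1 stood at 1709.6 and 2012 CPM in the sham, 1469 and 1112 in the irradiated wild-type and 1102 and 1665 in the knockout-labelled libraries. Il1r2 stood at 3252 and 4716 CPM in the sham, 2485 and 3457 in the irradiated wild-type and 2255 and 2391 in the knockout-labelled libraries. For these genes detection in the members is fixed in part by the rule, and the shares in other leukocytes give the background from free RNA. After thinning every cell to 500 UMIs, Acod1 had a UMI in 47.9% of members, Il1r2 in 74.8% and Csf3r in 55.0%, against 0.1%, 0.5% and 1.3% of macrophages (at least 30 C1q UMIs). The unthinned Acod1 shares were 72.4% of members (median 1540 UMIs) and 2.2% of macrophages (median 7607 UMIs), and 2.4% of B cells (median 6094 UMIs), and Csf3r had a UMI in 16.5% of macrophages unthinned.

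The markers did not set the members apart from other neutrophils. The nearest class comprised the 3679 cells that passed the same S100, C1q, Cd79 and Cd3 limits but had 3 or more UMIs of Retnlg plus Lcn2 plus Wfdc21, here called Retnlg-high neutrophils; 29 further cells fell in neither class. Acod1 was 1511 ± 359 CPM (SD, n = 6 libraries) in the members and 1768 ± 426 CPM in the Retnlg-high neutrophils. Il1r2 was 3093 ± 934 CPM and 3100 ± 779 CPM, and Csf3r 1261 ± 230.2 CPM and 1568 ± 133 CPM. Leaving out cells with transcripts of another lineage (described below) turned the order for Acod1, to 2085 against 2024 CPM, and for Il1r2, to 4309 against 3617 CPM. The S100 and granule genes of the rule were lower in the members, with S100a8 at 17062 against 53613 CPM and Retnlg at 224 against 6380 CPM. The name activated is therefore not used below, and the members are called Retnlg-low neutrophils. These comparisons are descriptions, since the rule used the same genes.

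The boundary between the classes fell inside a continuous distribution. Cells with 0, 1 and 2 UMIs of Retnlg plus Lcn2 plus Wfdc21 numbered 173, 178 and 185, while just outside the rule 153, 159 and 160 cells had 3, 4 and 5. On the other limits, 21 and 8 cells had 0 and 1 UMIs of Acod1 plus Il1r2 plus Csf3r, and 16 and 14 had 2 and 3. Depth moves a cell across the first boundary. The Retnlg-low cells had a median of 1540 UMIs and the Retnlg-high cells 2367. When every cell was thinned to 1000 UMIs before the rule was applied, which left out 1018 cells, 1062 cells passed. Of these, 386 were members by raw UMIs and 445 were Retnlg-high by raw UMIs.

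Transcripts of other lineages were present in many members. At least 1 UMI of the macrophage markers was found in 430 of the 536, and of the monocyte markers in 410, while 5 or more were found in 112 and 154. Of the 536 members, 54 (10.1%) had 5 or more UMIs from a marker list outside the monocyte and macrophage lineage, namely of endothelial, fibroblast, mural, cardiomyocyte, erythroid, B, T, NK, dendritic or mast cells. These cells had a median of 7121 UMIs against 1494.5 in the other 482, and they held 34.9% of all member UMIs. By library they held 47.5% and 26.1% of the UMIs in the sham, 53.4% and 30% in the irradiated wild-type and 28.8% and 31.1% in the knockout-labelled libraries. The share was highest in sham library 1 and irradiated wild-type library 1.

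Endothelial markers were the commonest, in 32 members, followed by cardiomyocyte markers in 14, B cell markers in 13 and fibroblast and dendritic markers in 10 each. The CD45 selection is meant to exclude endothelial cells, cardiomyocytes and fibroblasts, yet single members held up to 920 endothelial and 208 fibroblast marker UMIs. Whether such cells passed the selection was not tested. Summed endothelial markers stood at 3570 and 616 CPM in the sham, 6487 and 3402 in the irradiated wild-type and 3474 and 4378 in the knockout-labelled libraries. Without the 54 cells the same sum was 76.5 to 204 CPM. Erythroid markers reached 14184 CPM in sham library 1 and 5202 CPM in irradiated wild-type library 1, and at most 127 CPM in the other 4. Prg2 and Epx of the eosinophil markers, and Ms4a2 and Mcpt8 of the mast cell and basophil markers, had no UMI in any member, which allows up to 2.04 CPM over the 1473945 member UMIs. Other markers of these lists were detected. Eosinophil markers had a UMI in 27 members, at most 1 per member, and mast cell or basophil markers in 16, at most 6 per member. Apart from the 54 cells, 72 members, with a median of 4552 UMIs, had 10 or more UMIs of macrophage or monocyte markers. The tests across genes were therefore run on all members and on the 482 without another lineage, with values from both given for the genes the results turn on.

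**Figure D1:**
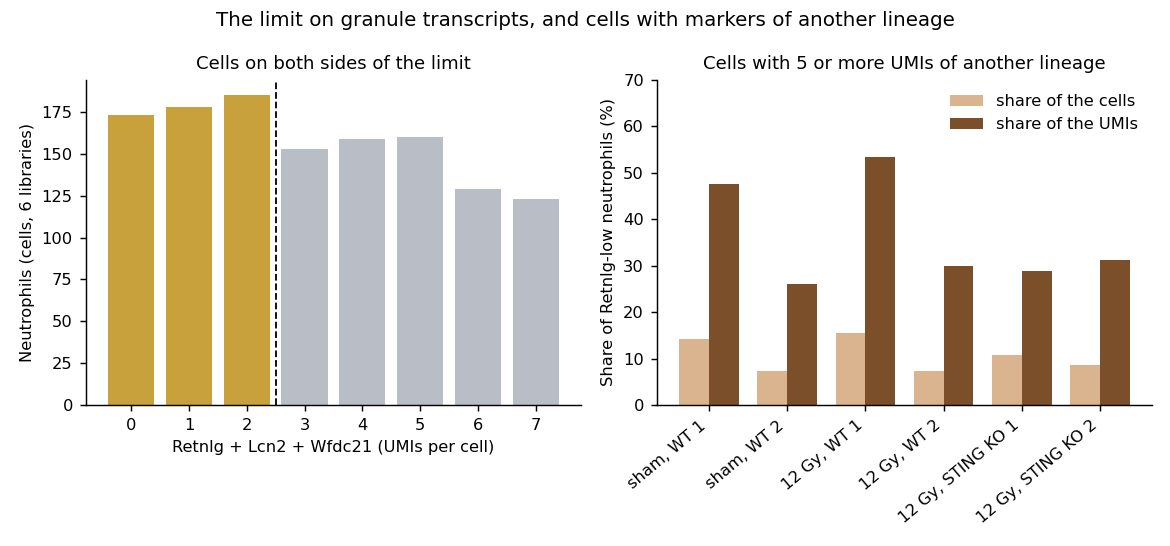
Left, number of cells at each count of Retnlg plus Lcn2 plus Wfdc21 UMIs among cells passing the other limits of the rule, with the boundary of the class marked. Right, percent of member UMIs held per library by members with 5 or more UMIs of another lineage, which runs from 26.1% in sham library 2 to 53.4% in irradiated wild-type library 1.

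Retnlg-low neutrophils made up between 1.29% and 1.90% of the cells in every library. Their share was 1.79% and 1.32% in the sham, 1.29% and 1.72% in the irradiated wild-type and 1.90% and 1.70% in the knockout-labelled libraries. All 3 groups overlapped. The means were 1.55% ± 0.333 in sham, 1.5% ± 0.305 in irradiated wild type and 1.80% ± 0.137 in the knockout-labelled group (SD, n = 2 each). The 2-sided exact permutation test gave p = 0.667 for sham against irradiated wild type and p = 0.667 for the genotype comparison, in a design that cannot give less than 0.333. Single-library shares carried exact (Clopper-Pearson) 95% intervals as wide as 0.941% to 1.72%, in irradiated wild-type library 1, which cover counting error only.

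Relative to all neutrophils the class varied far more. It made up 20.6% and 7.06% of neutrophils in the sham, 19.4% and 17.4% in the irradiated wild-type and 11.6% and 12.2% in the knockout-labelled libraries. Sham library 2 stood lowest and sham library 1 highest, so that the sham group alone spanned all other libraries. Neutrophils as a whole were 8.69% and 18.7% of cells in the sham, 6.64% and 9.90% in the irradiated wild-type and 16.3% and 14% in the knockout-labelled libraries. The share of neutrophils that were Retnlg-low was 13.8% ± 9.56 in sham and 18.4% ± 1.42 in irradiated wild type (SD, n = 2 each, exact permutation p = 1). It was 11.9% ± 0.386 in the knockout-labelled group (n = 2, exact permutation p = 0.333 against irradiated wild type, the smallest the design allows).

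**Figure D2:**
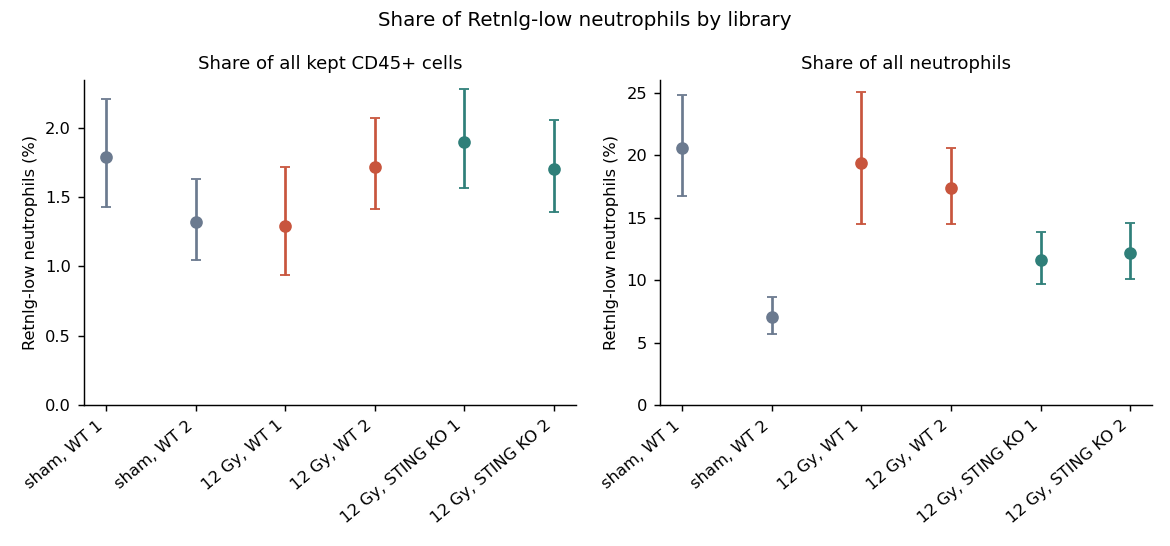
Retnlg-low neutrophils as a percent of all kept cells and as a percent of all neutrophils, 1 point per library with the exact 95% interval, grouped by sham, irradiated wild type and libraries labelled STING knockout. The share of all cells lies between 1.29% and 1.90% in every library, whereas the share of neutrophils runs from 7.06% to 20.6% within the sham group.

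Il1b and the chemokine gene Cxcl2 were among the most abundant transcripts of the class. Il1b, on chr2:129364570-129371139 of the minus strand, was the gene with the sixth highest mean level. Il1b stood at 6508 and 11477 CPM in the sham, 9715 and 10553 in the irradiated wild-type and 10762 and 9745 in the knockout-labelled libraries. Its level was similar in every library apart from sham library 1, the lowest. After thinning to 500 UMIs, 93.3% of members had an Il1b UMI, against 92.6% of Retnlg-high neutrophils, 10.7% of macrophages and 6.3% of B cells (99.3%, 98.9%, 39.2% and 27.4% unthinned). Il1rn, the receptor antagonist of interleukin 1, was at 587 ± 146 CPM (SD, n = 6), and Nlrp3, the sensor of the inflammasome that activates interleukin 1 beta, at 557 ± 153 CPM.

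Cxcl2 lay above Il1b in 3 of the 6 libraries and below it in the other 3. Cxcl2, a ligand of the neutrophil receptor Cxcr2, lies at chr5:90903871-90905938 on the plus strand. It stood at 9837 and 14426 CPM in the sham, 7283 and 6323 in the irradiated wild-type and 7244 and 10046 in the knockout-labelled libraries. Sham library 2 was the highest, and sham library 1 and knockout-labelled library 2 had nearly equal levels. Ccl3 and Ccl4, chemokines of activated myeloid cells, were at 632 ± 377 CPM and 877 ± 408 CPM. Among receptors, Cxcr4, which rises on ageing neutrophils, stood at 1050.1 ± 173 CPM and Cxcr2 at 379 ± 113 CPM. Ccrl2, an atypical receptor that binds chemerin, was at 1232 ± 513 CPM, and C5ar1, the receptor for complement C5a, at 611 ± 262 CPM.

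Other abundant transcripts encoded regulators and effectors of myeloid cells. Cebpb, a transcription factor of emergency granulopoiesis, was at 8831 ± 1132 CPM, and Mcl1, the survival factor on which neutrophils depend, at 2504 ± 320.2 CPM. Ptgs2, the inducible cyclooxygenase, stood at 1591 ± 416 CPM, and Hdc, which makes histamine, at 1794 ± 342 CPM. Cd14, a co-receptor for lipopolysaccharide, was at 2059 ± 569 CPM. Tnf was low, at 58.8 ± 25.8 CPM, with a UMI in 3.2% of members thinned to 500 UMIs against 9.0% of macrophages. Fos, Junb and Dusp1, immediate early genes that tissue dissociation also induces, were among the abundant transcripts, with Dusp1 at 5572 and Fos at 3907 CPM. The part of dissociation in these levels was not tested.

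Against the Retnlg-high neutrophils, the Retnlg-low class differed in a graded way in genes that the rule did not name. The values are descriptions, since the same cells were divided by transcripts that vary together, and they compare members without another lineage with Retnlg-high cells treated alike. Of 2513 genes at 50 CPM or more in either class, 423 (16.8%) were higher in all 6 libraries and 144 (5.73%) lower in all 6, and the median log2 ratio over all 2513 was 0.16. With all members, 581 (20.1%) of 2884 genes were higher and 219 (7.59%) lower in all 6. These counts include genes of the rule, and S100a8, S100a9, Retnlg, Lcn2 and Wfdc21 are among the lower ones in both settings. Ratios were taken after adding 5 CPM to each level.

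Genes on the high side encoded a pattern receptor, survival factors, a growth factor and cytokine regulators. Clec4n, encoding the fungal-recognition receptor Dectin-2, was at 277 ± 142 against 63.3 ± 18.1 CPM (SD, n = 6; mean log2 ratio 1.94). The anti-apoptotic Bcl2 relatives Bcl2a1a, Bcl2a1b and Bcl2a1d had mean log2 ratios of 1.59, 1.29 and 0.99, though UMIs of these near-identical copies cannot be assigned with certainty. Csf1, the growth factor of macrophages, was at 353 ± 142 against 137 ± 39.2 CPM (log2 ratio 1.26). Bhlhe40, a transcription factor of inflammatory myeloid cells, was at 245 ± 34.0 against 90.3 ± 31.8 CPM (log2 ratio 1.44). All of these were higher in each of the 6 libraries. Il1rn, at 837 ± 269 against 450.0 ± 153 CPM (log2 ratio 0.89), and Cxcr4, at 1412 ± 271 against 920.1 ± 149 CPM (log2 ratio 0.61), lay on the same side, as did Ccrl2 (0.66) and Nlrp3 (0.54).

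Of 19 measured genes of the granule protein and maturation list, 5 were lower in all 6 libraries (background 5.73%, list median -0.19). In the other direction 1, Ncf1, a subunit of the NADPH oxidase, was higher (log2 ratio 0.48, background 16.8%). Genes on the low side, from that list or outside it, included Mmp8, Ly6g, Timp2, Slc2a3 and Anxa1. Mmp8, the neutrophil collagenase of the specific granules, was at 116 ± 54.7 against 447 ± 248 CPM (log2 ratio -1.90). Ly6g, the surface protein used to identify mouse neutrophils, was at 11.1 ± 12.6 against 95.4 ± 47.1 CPM (log2 ratio -2.90). Timp2, an inhibitor of metalloproteinases, was at 69.1 ± 28.4 against 184 ± 51.9 CPM (log2 ratio -1.42). Slc2a3, a glucose transporter, had a ratio of -0.60, and Anxa1, an anti-inflammatory annexin, of -0.65. Each was lower in all 6 libraries.

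Over all 2513 genes 16.8% were higher and 5.73% lower in all 6 libraries, with a median log2 ratio of 0.16. By list, 11 of 25 measured genes of neutrophil ageing and tissue residence were higher in all 6 libraries and 2 lower (median log2 ratio 0.37). With all members 4 of 25 were higher and 2 lower (median 0.16), where 20.1% of all genes were higher (median 0.18). Without the members of another lineage, 7 of 14 survival and death genes were higher and 1 lower (median 0.23). Of 15 genes of MHC class I presentation 5 were higher and 0 lower (median 0.43). Of 25 immediate early and dissociation stress genes 8 were higher and 0 lower (median 0.27), and 10 and 0 with all members (median 0.29). The part of dissociation in the ratios was not tested. Of 20 genes of glycolysis and the hypoxia response 1 was higher and 7 lower (median -0.31). Of 24 interferon-stimulated genes 0 were higher and 3 lower (median -0.02). Macrophage and monocyte markers moved with the class too: 3 of 7 and 4 of 9 were higher in all 6 libraries (medians 0.49 and 0.44), Nr4a1 being both a monocyte marker and an immediate early gene. The macrophage list and its median include C1qa, C1qb and C1qc, which the rule used and which were not among the 3. The part of macrophage and monocyte transcripts in the other differences was not tested.

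**Figure D3:**
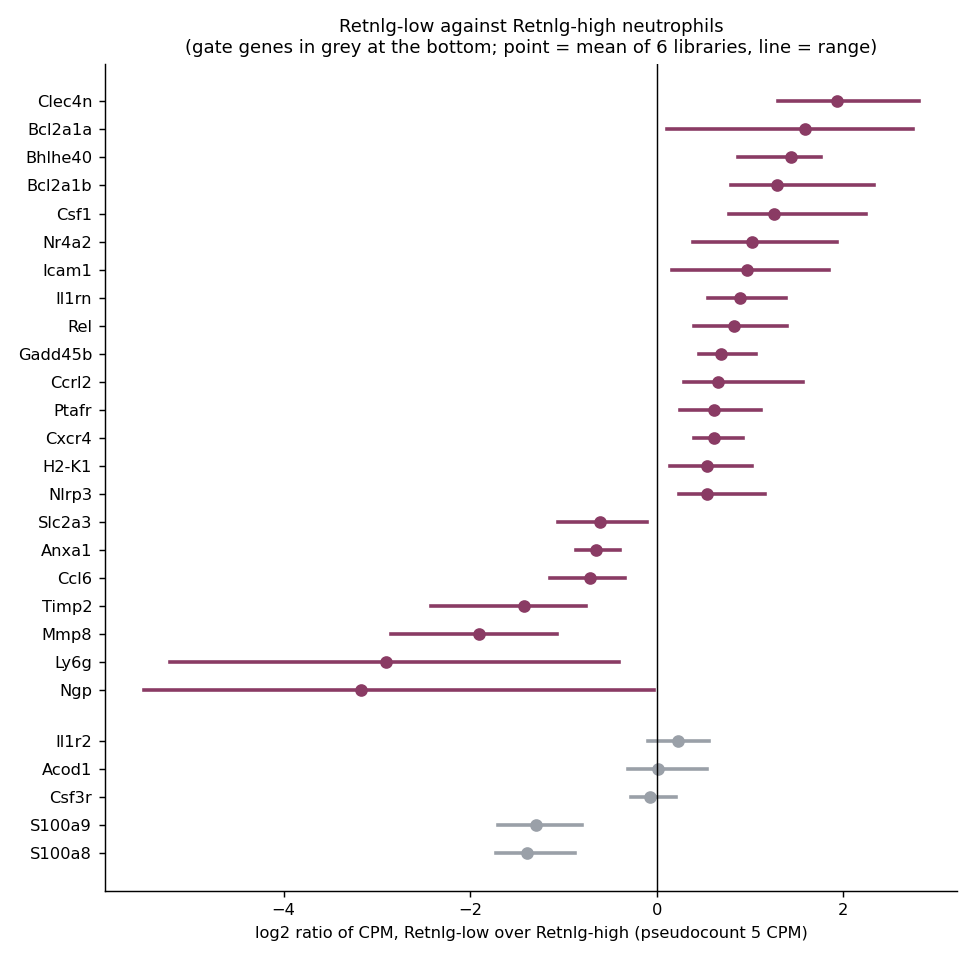
Mean log2 ratio of CPM, Retnlg-low over Retnlg-high neutrophils, for genes the rule did not use, with bars spanning the lowest and highest of the 6 libraries and members of another lineage left out. Clec4n, Csf1 and Cxcr4 lie above 0 in all 6 libraries and Mmp8, Ly6g and Timp2 below 0 in all 6.

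The first comparison asked what irradiation altered in wild-type Retnlg-low neutrophils at 28 days. Among all members, 1 of 3772 genes tested (0.0265%) passed, and it was lower after irradiation. This was Igfbp5, an insulin-like growth factor binding protein made by stromal cells, at chr1:72857932-72874884 on the minus strand. Its UMIs numbered 198 and 218 in the sham, 0 and 2 in the irradiated wild-type and 9 and 26 in the knockout-labelled libraries. Of the sham UMIs, 190 of 198 and 217 of 218 lay in 1 cell of each library, and without the members of another lineage Igfbp5 was at 0 to 8.51 CPM everywhere. The edgeR quasi-likelihood test with Benjamini-Hochberg adjustment gave a log2 fold change (± SE, here and below) of -7.72 ± 0.83, adjusted p = 0.0167. Summed over libraries, 416 sham UMIs faced 2 irradiated UMIs, a ratio of 215 with a 95% counting interval of 59.1 to 1780. That interval treats each UMI as independent and covers neither the spread between cells nor that between libraries. Fibroblast markers as a whole moved with Igfbp5, at 1211 and 1025 CPM in the sham and 196 and 262 CPM in the irradiated wild-type members. Mgp and Dcn, matrix genes of stromal cells, and Cpe, a carboxypeptidase, had log2 fold changes of -5.65, -5.64 and -4.04 without passing by edgeR (adjusted p = 0.0798, 0.499 and 0.472). DESeq2 called Mgp (adjusted p = 1.93e-07) and Cpe (adjusted p = 0.0145). In the sham libraries 1 cell each held 156 of 158 and 90 of 90 Dcn UMIs. For Mgp the counts were 111 of 228 and 28 of 41, and for Cpe 72 of 83 and 15 of 19.

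By edgeR Igfbp5 was the sole gene called among all members. Among the 482 members without another lineage edgeR called 0 of 2228 genes (0%), and the unadjusted p was under 0.05 for 148 (6.64%). Among all members the unadjusted count was 218 (5.78%), and DESeq2 called 4 genes, Igfbp5, Mgp, Cpe and Igfbp6. The number of calls rested on single libraries: it was 20 without sham library 1, 37 without sham library 2, 6 without irradiated wild-type library 1 0 without irradiated wild-type library 2 and 4 without either knockout-labelled library, each time with the lone library assumed to vary like the other groups.

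MHC class II genes, which encode the molecules that present antigen to CD4 T cells, lay on the high side after irradiation without passing. Of 8 tested, 7 were higher after irradiation at an unadjusted p under 0.05, where 2.55% of all genes were, with a median log2 fold change of 2.24 against 0.01 for all genes. Cd74, the invariant chain, stood at 782 and 723 CPM in the sham, 1326 and 6031 in the irradiated wild-type and 1788 and 1844 in the knockout-labelled libraries. Irradiated wild-type library 2 was far above the rest, and 356 of its 1427 Cd74 UMIs lay in 1 cell. The edgeR log2 fold change was 2.27 ± 0.57, adjusted p = 0.504, 0.70 when that library was left out, and 1.11 ± 0.28, adjusted p = 0.419 without the members of another lineage. In those members Cd74 stood at 1302 and 894 CPM in the sham, 2230.4 and 2588 in the irradiated wild-type and 774 and 1619 in the knockout-labelled libraries. There both irradiated wild-type libraries lay above both sham libraries, and 4 of 5 tested class II genes were higher in unadjusted terms (background 2.83%, median 1.06). With the macrophage- and monocyte-rich members also left out, the edgeR values were 0.87 for Cd74, 1.06 for H2-Ab1, 0.64 for H2-Aa and 0.63 for H2-Eb1, with unadjusted p = 0.0231, 0.0162, 0.141 and 0.098. Dendritic cell markers moved with the class II genes among all members, summing to 30.1 and 6.29 CPM in the sham, 161 and 178 in the irradiated wild-type and 56.1 and 168 in the knockout-labelled libraries. Without the members of another lineage that sum was at most 42.2 CPM.

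None of the chemokine and receptor genes passed for radiation. Of 19 tested, 0 were higher and 4 lower in unadjusted terms (background 3.23% lower), with a median of -0.14. For Cxcl2 the log2 fold change was -0.88 ± 0.25, adjusted p = 0.68. Cxcl3, a close relative with the same receptor, stood at 241 and 352 CPM in the sham, 77.3 and 123 in the irradiated wild-type and 56.1 and 161 in the knockout-labelled libraries, with a log2 fold change of -1.56 (adjusted p = 0.69). The sham libraries did not overlap the irradiated wild-type libraries for either gene. In members without another lineage the values were -0.69 for Cxcl2 and -1.41 for Cxcl3. Ccrl2 (log2 fold change -0.85), Cd14 (-0.70) and Nlrp3 (-0.73) had adjusted p-values of 0.72, 0.807 and 0.807, and values of -0.78, -0.59 and -0.53 without another lineage. Bcl2l11, which encodes the pro-apoptotic protein BIM, was at 284 and 346 CPM in the sham, 89.2 and 165 in the irradiated wild-type and 143 and 242 in the knockout-labelled libraries (log2 fold change -1.30, adjusted p = 0.68, and -1.11 without another lineage).

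Interferon-stimulated genes had 2 of 33 tested genes higher and 1 lower in unadjusted terms (backgrounds 2.55% and 3.23%, median 0.27). Ifit2, which binds foreign RNA, had UMIs of 6 and 3 in the sham, 22 and 22 in the irradiated wild-type and 3 and 2 in the knockout-labelled libraries, and 14 of 22 and 20 of 22 of the irradiated wild-type UMIs lay in 1 cell of each library. Bst2, which tethers viral particles, stood at 103 and 69.2 CPM in the sham, 244 and 237 in the irradiated wild-type and 112 and 91.1 in the knockout-labelled libraries (log2 fold change 1.41, adjusted p = 0.499). In the irradiated wild-type libraries 1 cell each held 21 of 41 and 25 of 56 of its UMIs, and without another lineage Bst2 stood at 57.3 and 34.0 CPM in the sham, 38.2 and 54.3 in the irradiated wild-type and 78.9 and 56.0 in the knockout-labelled libraries, where the groups overlapped. Irf7, the transcription factor that amplifies type I interferon, was at 73.0 and 107 CPM in the sham, 155 and 144 in the irradiated wild-type and 53.6 and 66.6 in the knockout-labelled libraries (0.71, adjusted p = 0.845, and 0.49 without another lineage). Among all members both irradiated wild-type libraries exceeded both sham libraries for all 3 genes.

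Of 16 tested targets of p53, the transcription factor of the DNA damage response, 3 were higher and 0 lower in unadjusted terms (backgrounds 2.55% and 3.23%). Their median was -0.02. Bax, the pore-forming death protein, was among the 3 (log2 fold change 1.80, adjusted p = 0.504), with UMIs of 17 and 6 in the sham, 47 and 34 in the irradiated wild-type and 40 and 45 in the knockout-labelled libraries. Its value in members without another lineage was 0.06, and 0 of 9 p53 targets differed in unadjusted terms (background 6.64%). In irradiated wild-type library 1, 19 of 47 Bax UMIs lay in 1 cell, and in library 2, 11 of 34. Ccnd1, the cyclin of early cell cycle entry, had UMIs of 15 and 2 in the sham, 85 and 47 in the irradiated wild-type and 110 and 231 in the knockout-labelled libraries, and 1 cell held 55 of 85 and 29 of 47 of the irradiated wild-type UMIs. Survival and death genes gave 0 higher and 1 lower of 19, and neutrophil identity genes 0 and 0 of 16.

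Among other genes with low unadjusted p-values, Bcl6, a transcriptional repressor, had a log2 fold change of 1.85 ± 0.52, adjusted p = 0.68 and Stap1, a signalling adaptor, of 1.5 ± 0.35, adjusted p = 0.504. Both had similar values without the members of another lineage (1.73 and 1.44). Spp1, which encodes the secreted phosphoprotein osteopontin, stood at 271 and 69.2 CPM in the sham, 35.7 and 50.7 in the irradiated wild-type and 51.0 and 31.5 in the knockout-labelled libraries, highest in sham library 1 (-2.02 ± 0.61, adjusted p = 0.68). In Retnlg-high neutrophils its value was -1.82 ± 0.29, adjusted p = 0.308. Of 25 immediate early and dissociation stress genes 1 was higher and 4 lower in unadjusted terms (backgrounds 2.55% and 3.23%, median -0.23). Without the members of another lineage 2 were higher and 1 lower (background 6.64% in both directions together, median 0.06). Atf3, a stress-induced transcription factor of that list, went from -0.92 to 0.13 between these settings.

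**Figure D4:**
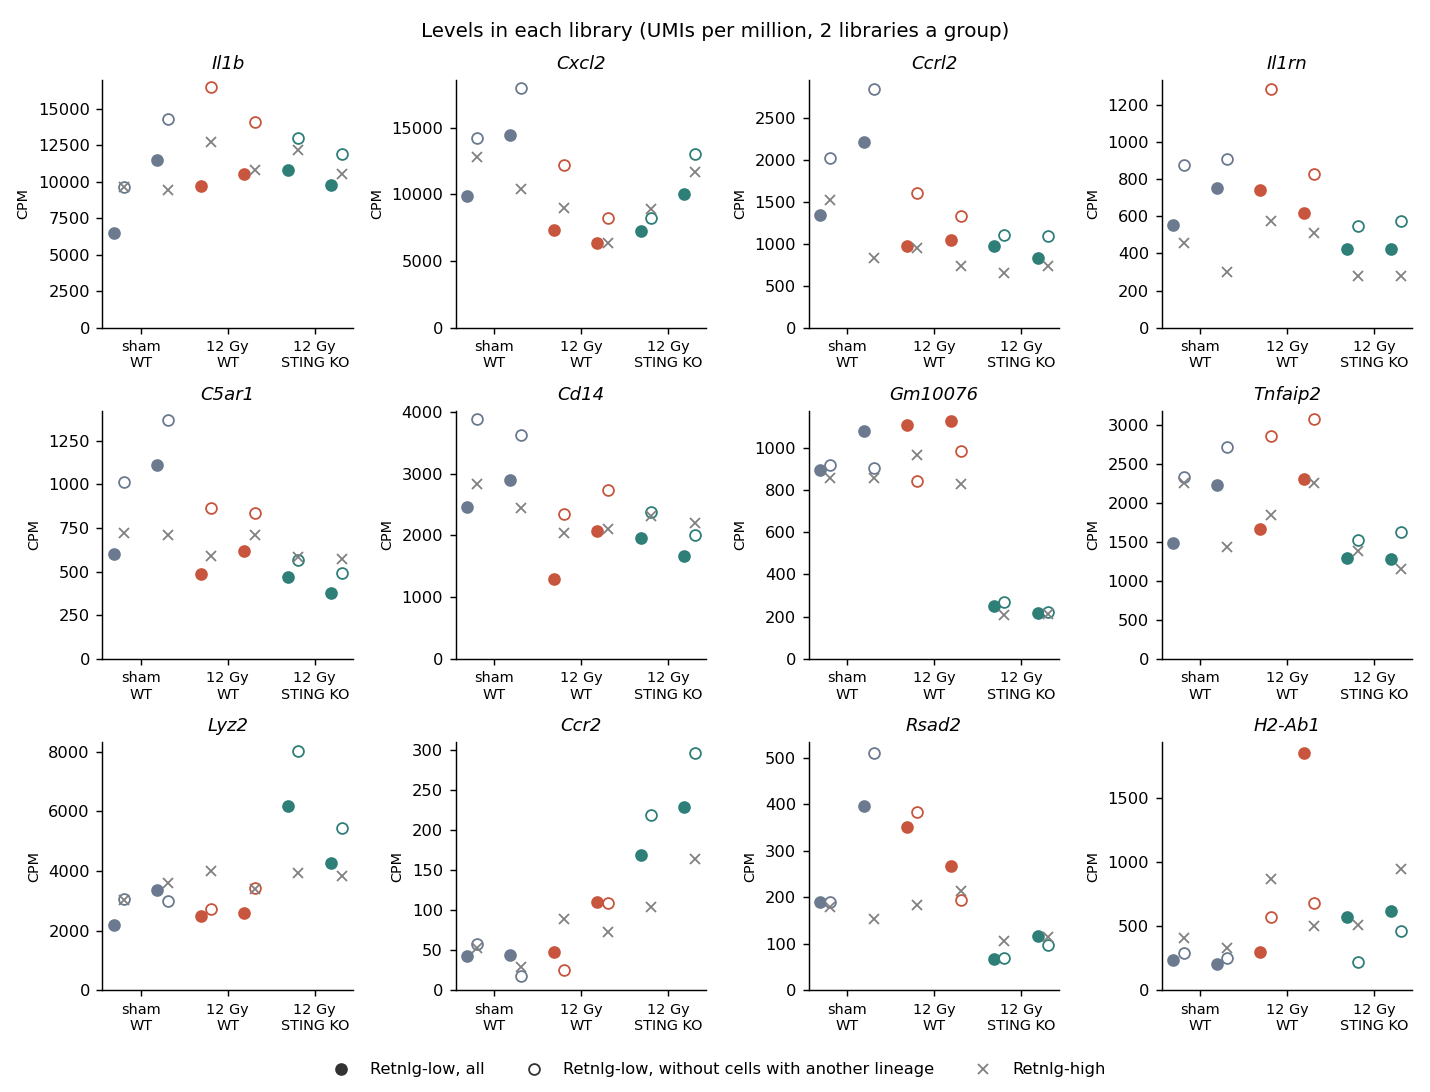
CPM per library for selected genes in Retnlg-low neutrophils, all members and members without another lineage, with Retnlg-high neutrophils beside them, on a linear axis. Gm10076 is lowest in both knockout-labelled libraries in every class shown, and H2-Ab1 of all members peaks in irradiated wild-type library 2.

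The genotype comparison set the irradiated libraries labelled STING knockout against irradiated wild type. Tmem173 itself did not check the label, because its UMIs numbered 1 and 2 in the sham, 2 and 8 in the irradiated wild-type and 5 and 7 in the knockout-labelled libraries, too few for a test, and a 3' tag can lie outside the deleted part. Of 3772 genes 1 (0.0265%) passed among all members. Gm10076, a long intergenic non-coding gene at chr14:105681828-105682211 on the plus strand, stood at 893 and 1082 CPM in the sham, 1106 and 1128 in the irradiated wild-type and 250.0 and 217 in the knockout-labelled libraries. All 4 wild-type libraries lay between 893 and 1128 CPM, and both knockout-labelled libraries far below. The edgeR log2 fold change was -2.29 ± 0.26, adjusted p = 0.0266, and it was -2.01 ± 0.14, adjusted p = 0.00319 in the Retnlg-high neutrophils, which thus had the same call. The gene is uncertain, because 291 of the 354 distinct stretches of 31 bases in its annotated transcripts also occur in Rpl41, a ribosomal protein gene, so reads of the pair can be split or lost. Rpl41 itself stood at 1787 and 1761 CPM in the sham, 2045 and 1893 in the irradiated wild-type and 2400.3 and 2072 in the knockout-labelled libraries. DESeq2 called 5 genes, and 119 genes (3.15%) had an unadjusted p under 0.05. Leaving out sham library 1 or 2, which enter only the shared spread, raised the count to 9 or 5, and leaving out either irradiated wild-type library or knockout-labelled library 1 brought it to 0. Without knockout-labelled library 2 the 1 gene called was a higher one, and Gm10076 did not pass in any of these 4 fits (log2 fold changes -2.40 to -2.17, adjusted p = 0.129 to 0.415).

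Once the members of another lineage were left out, 3 of 2228 genes (0.135%) passed, with 198 (8.89%) in unadjusted terms. Besides Gm10076 (-1.94 ± 0.22, adjusted p = 0.000263), Lyz2 was higher and Tnfaip2 lower in the knockout-labelled libraries. Lyz2, the lysozyme of granulocytes, monocytes and macrophages, which shares 32.8% of its 31-base stretches with Lyz1, stood at 3071 and 2988 CPM in the sham, 2715 and 3427 in the irradiated wild-type and 8033 and 5452 in the knockout-labelled libraries in those members (edgeR log2 fold change 1.08 ± 0.20, adjusted p = 0.0484). Both knockout-labelled libraries exceeded the other 4. Monocyte markers moved with it, summing to 3136 and 2247 CPM in the sham, 3072 and 2528 in the irradiated wild-type and 4965 and 3075 in the knockout-labelled libraries. When members with 10 or more macrophage or monocyte UMIs were also left out, Lyz2 had a log2 fold change of -0.16 (adjusted p = 0.966).

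Tnfaip2, a gene induced by tumour necrosis factor, stood at 2334 and 2724 CPM in the sham, 2855 and 3083 in the irradiated wild-type and 1527 and 1624 in the knockout-labelled libraries without the members of another lineage (edgeR log2 fold change -0.97 ± 0.18, adjusted p = 0.0484). The knockout-labelled libraries lay below the other 4. In members free of macrophage- and monocyte-rich cells too its value was -0.85 ± 0.16, adjusted p = 0.0126. In Retnlg-high neutrophils the value was -0.63 ± 0.21, adjusted p = 0.57. It was the sole gene of the tumour necrosis factor and NF-kB list that passed. With the macrophage- and monocyte-rich members also left out, 14 of 1636 genes (0.856%) were called, 2 higher and 12 lower, and they included Gm10076 and Tnfaip2. The higher genes included Gm42418 (1.55 ± 0.22, adjusted p = 0.00267), which stood at 1113 and 906 CPM in the sham, 951 and 685 in the irradiated wild-type and 1969 and 2520.3 in the knockout-labelled libraries among all members (1.43 ± 0.26, adjusted p = 0.304).

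Interferon-stimulated genes had 0 of 33 tested members higher and 6 lower in the knockout-labelled libraries in unadjusted terms, against backgrounds of 1.48% and 1.67% of all genes, with a median log2 fold change of -0.20 against -0.01 for all genes. None passed after adjustment. Rsad2, which encodes the antiviral protein viperin, at chr12:26442746-26456452 on the minus strand, stood at 189 and 396 CPM in the sham, 351 and 266 in the irradiated wild-type and 66.3 and 116 in the knockout-labelled libraries. Its knockout-labelled libraries lay below all 4 others (log2 fold change -1.80 ± 0.42, adjusted p = 0.692). For Ifit2 the value was -3.85 ± 0.54, adjusted p = 0.076, for Ifit1 -2.93 (adjusted p = 0.724), for Irf7 -1.35 and for Bst2 -1.26 (adjusted p = 0.692 for both). In irradiated wild-type library 2, 27 of 45 Ifit1 UMIs lay in 1 cell. For Rsad2, 1 cell each held 18 of 59 and 31 of 63 UMIs in the irradiated wild-type libraries. After thinning to 500 UMIs, Rsad2 had a UMI in 6.0% and 13.4% of sham and 8.9% and 4.6% of irradiated wild-type members. The knockout-labelled members had 3.6% and 5.7%, overlapping irradiated wild type. In members without another lineage 0 of 22 were higher and 2 lower in unadjusted terms (backgrounds 4.13% and 4.76%), and the median was -0.05. The Rsad2 value there was -1.77 ± 0.47, adjusted p = 0.123, and that of Irf7 -0.76, while Ifit2, Ifit1 and Bst2 did not reach the count filter. The 3 tested genes of cytosolic DNA sensing included none at an unadjusted p under 0.05 in any of the 3 comparisons.

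Il1rn stood at 876 and 911 CPM in the sham, 1287 and 827 in the irradiated wild-type and 548 and 575 in the knockout-labelled libraries without the members of another lineage, with the lowest values in the knockout-labelled libraries (log2 fold change -0.93 ± 0.23, adjusted p = 0.113). Cd63, a tetraspanin of granule membranes, had a value of -1.33 ± 0.33, adjusted p = 0.113. Neither passed. Among all members thinned to 500 UMIs, Il1rn had a UMI in 21.4% and 34.1% of sham and 44.4% and 33.0% of irradiated wild-type cells. The shares were 17.1% and 14.3% in knockout-labelled members and 2.0% in macrophages. In members without another lineage MHC class II genes lay on the low side, 4 of 5 in unadjusted terms (background 4.76%, median -0.99), with Cd74 at -1.08 ± 0.27, adjusted p = 0.121. Among all members 0 of 8 did (median -0.83), and without irradiated wild-type library 2 Cd74 was at 0.50.

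Of the 9 tested genes of the monocyte marker list, 4 were higher and 0 lower in unadjusted terms (backgrounds 1.48% and 1.67%, median 0.28), and none passed by edgeR. Fn1, encoding fibronectin and not on that list, was at 142 and 75.5 CPM in the sham, 35.7 and 46.5 in the irradiated wild-type and 245 and 287 in the knockout-labelled libraries (2.61 ± 0.38, adjusted p = 0.077 by edgeR, adjusted p = 0.0168 by DESeq2). In the knockout-labelled libraries 1 cell each held 42 of 96 and 33 of 82 of the Fn1 UMIs. Chil3, a chitinase-like protein of monocytes and of young neutrophils, was at 232 and 339.6 CPM in the sham, 59.5 and 38.0 in the irradiated wild-type and 671 and 123 in the knockout-labelled libraries (3.03 ± 0.75, adjusted p = 0.724 by edgeR, adjusted p = 0.0187 by DESeq2). Knockout-labelled library 1 was the highest for Chil3, and library 2 of that group lay below both sham libraries. For Chil3, 1 cell each held 49 of 54 and 37 of 54 UMIs in the sham and 52 of 263 and 18 of 35 in the knockout-labelled libraries. Ccr2, the receptor that draws inflammatory monocytes into tissue, and F13a1, a coagulation factor subunit of monocytes, had values of 1.22 and 2.26. The part of monocyte and macrophage transcripts in these values was not tested.

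The libraries labelled STING knockout were also compared with sham. This contrast differs in both radiation and genotype, which cannot be told apart, and it shares libraries with the other 2. Among all members 2 of 3772 genes (0.053%) passed, Gm10076 (-2.15 ± 0.26, adjusted p = 0.0449) and Igfbp5 (-4.41 ± 0.58, adjusted p = 0.045), both lower. DESeq2 called 7 genes, and 186 (4.93%) had an unadjusted p under 0.05. The count was 19 without sham library 1, 45 without sham library 2, 1 and 0 without irradiated wild-type library 1 and 2, and 0 and 3 without knockout-labelled library 1 and 2.

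In members without another lineage 18 of 2228 genes (0.808%) passed, 6 higher and 12 lower, with 282 (12.7%) in unadjusted terms. The higher genes included Ms4a6c, a membrane protein of monocytes and macrophages, and Ccr2 and F13a1 of the monocyte marker list. Ms4a6c stood at 90.1 and 51.1 CPM in the sham, 102 and 127 in the irradiated wild-type and 355 and 331 in the knockout-labelled libraries (2.18 ± 0.35, adjusted p = 0.0086). Ccr2 stood at 57.3 and 17.0 CPM in the sham, 25.5 and 109 in the irradiated wild-type and 219 and 295 in the knockout-labelled libraries (2.66 ± 0.51, adjusted p = 0.0188). F13a1 stood at 16.4 and 8.51 CPM in the sham, 12.7 and 30.2 in the irradiated wild-type and 151 and 86.5 in the knockout-labelled libraries (3.12 ± 0.68, adjusted p = 0.043). Both knockout-labelled libraries exceeded the other 4 for all 3 genes. S100a4, a calcium-binding protein of motile cells (1.80 ± 0.32, adjusted p = 0.012), Lyz2 (1.07 ± 0.20, adjusted p = 0.0188) and the ribosomal protein gene Rps19 (1.00 ± 0.22, adjusted p = 0.043) completed the 6.

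The lower genes included receptors of the inflammatory response. Ccrl2, at chr9:111054486-111057519 on the minus strand, stood at 2031 and 2851 CPM in the sham, 1606 and 1333 in the irradiated wild-type and 1111 and 1099.5 in the knockout-labelled libraries (-1.23 ± 0.21, adjusted p = 0.012). C5ar1 stood at 1015 and 1370.3 CPM in the sham, 867 and 833 in the irradiated wild-type and 566 and 494 in the knockout-labelled libraries (-1.25 ± 0.22, adjusted p = 0.012). The 4 irradiated libraries all lay below both sham libraries for these genes. Cd14 (-0.86 ± 0.18, adjusted p = 0.0367) and Cxcl3 (-1.62 ± 0.36, adjusted p = 0.0435) were lower too. Of the 16 chemokine and receptor genes tested, Ccr2 passed as higher and Ccrl2, C5ar1 and Cxcl3 as lower, 1 was higher and 8 lower in unadjusted terms (backgrounds 5.7% and 6.96%), and the median was -0.61 against -0.03 for all genes.

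Rsad2 was the 1 interferon-stimulated gene of 22 that passed (-2.19 ± 0.45, adjusted p = 0.0319). Among all members, 1 cell each held 15 of 44 and 14 of 63 Rsad2 UMIs in the sham libraries. In the knockout-labelled libraries 1 cell each held 6 of 26 and 7 of 33. Spp1 had a value of -2.80 ± 0.62, adjusted p = 0.043, and the linker histone gene Hist1h1c -1.58 ± 0.29, adjusted p = 0.0162. Asprv1, a protease, had -1.41 ± 0.30, adjusted p = 0.0367. Beside Gm10076 (-1.96 ± 0.22, adjusted p = 0.000222), the other 3 lower genes were Rab20, a small GTPase (-1.19 ± 0.25, adjusted p = 0.0319), the variant histone gene H3f3b (-0.80 ± 0.18, adjusted p = 0.0441) and AA467197 (-1.53 ± 0.34, adjusted p = 0.043). With the macrophage- and monocyte-rich members also left out, 2 of 1636 genes (0.122%) were called, of which 1, Gm10076, was among the 18. In that setting Lyz2 had a log2 fold change of 0.49 (adjusted p = 0.681), Ccrl2 of -0.99 (adjusted p = 0.062), and Ccr2, F13a1 and Ms4a6c were not tested. For comparison, Retnlg-high neutrophils had a Ccr2 value of 1.79 ± 0.31, adjusted p = 0.144.

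**Figure D5:**
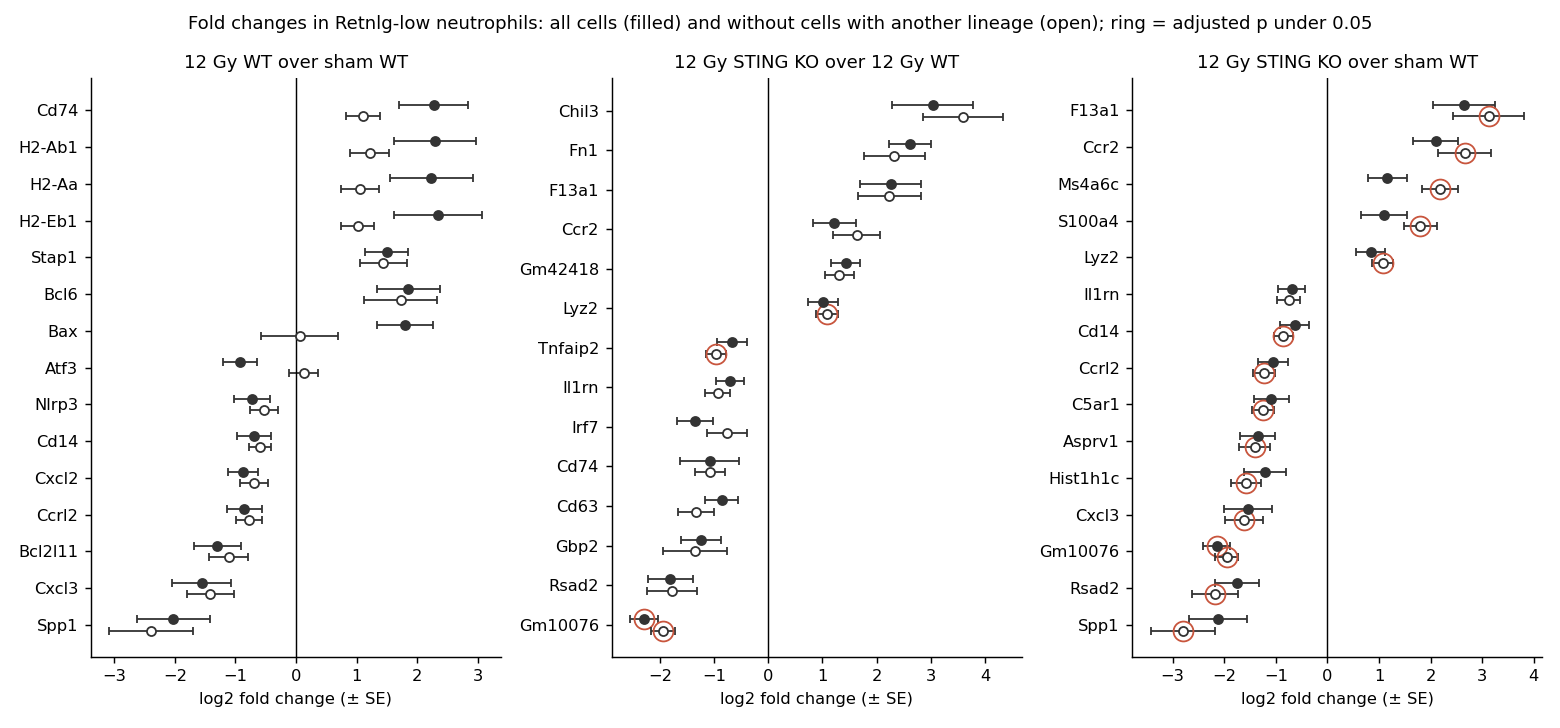
Log2 fold changes with SE from edgeR for selected genes in the radiation, genotype and knockout-labelled against sham comparisons, for all members and members without another lineage. In the genotype comparison Gm10076 lies at -2.29 in all members and -1.94 without another lineage. Cd74 in the radiation comparison goes from 2.27 in all members to 1.11 without another lineage.

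Whether the Retnlg-low neutrophils responded differently from the Retnlg-high neutrophils was tested as the difference between the effects. For radiation, edgeR called 0 of 6480 genes (0%) and DESeq2 0, and 211 (3.26%) differed in unadjusted terms. For genotype, 0 of 6480 passed (0%), with 171 (2.64%) in unadjusted terms and 0 by DESeq2. The radiation count was 12 without sham library 1 and 22 without sham library 2, and 1 without irradiated wild-type library 2 or either knockout-labelled library. The genotype count was 3 without knockout-labelled library 1. In members without another lineage 0 of 4408 passed for radiation (164, 3.72%, in unadjusted terms), with H2-Ab1 at 1.59 ± 0.31, adjusted p = 0.0853 and Ccl3 at -1.53 ± 0.28, adjusted p = 0.0691.

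For genotype 2 of 4408 genes (0.0454%) passed there, with 243 (5.51%) in unadjusted terms. Lyz2 had a difference of 1.02 ± 0.19, adjusted p = 0.0392 and Ear2, an eosinophil-associated ribonuclease also expressed by some monocytes and macrophages, of 2.08 ± 0.38, adjusted p = 0.0392. Ear2 stood at 188 and 136 CPM in the sham, 89.2 and 78.4 in the irradiated wild-type and 255 and 259.6 in the knockout-labelled libraries in those members, highest in the knockout-labelled libraries. With the macrophage- and monocyte-rich members also left out, the Lyz2 difference was -0.17, and 1 of 2880 genes (0.0347%) passed, Cd74 (-1.27 ± 0.23, adjusted p = 0.00689).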

How the data were processed

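Raw UMI counts were deposited by the authors as 1 matrix per library of 32285 genes by cell barcode, not normalized, per the file headers. Per the labels' protocols, libraries were made with 10X Genomics 3' v3 chemistry. Cell Ranger 5.0.0 and the mm10 build are named in the submitters' processing notes, as is Seurat 3, without a role. Members and gene lists were chosen with earlier results of these data known.

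Counts were summed per library over members (159017 to 392029 UMIs). The 3 groups of 2 libraries were fitted together with edgeR 4.0.16 (quasi-likelihood F test, TMM, filterByExpr, Benjamini-Hochberg adjustment, calls at an adjusted p under 0.05) in R 4.3.3. Fitted fold changes carry their SE. Interactions with Retnlg-high sums tested differences between classes. The 16 genes of the rule were not tested. Lists are described by counts and medians. Shares were compared with 2-sided exact permutation tests. The procedure was tested on simulated counts.

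Named genes came from a rule: the label markers, Tmem173, called genes whose libraries do not overlap, up to 10 per direction with the lowest p, and, per list, the 4 members with the lowest p and the 4 with the highest level; against Retnlg-high cells, the 15 with the largest ratio each way. Ccl3, Ccl4, Cxcr2, C5ar1 and Tnf among the levels, Slc2a3 and Anxa1 among the ratios and H3f3b were chosen after their values were seen. Doublets were not removed, since the scrublet automatic threshold (scanpy 1.11.5) did not work, calling 0 to 3 cells per library. An alternative removed the top-scoring cells at the rate expected for the loading. Other alternatives were DESeq2 1.42.0, no TMM, no filter, stricter limits of the rule, thinned cells, leaving out libraries and a replicate block. Leaving out members of other lineages was chosen after seeing the data. Coordinates and transcripts come from GENCODE vM21 (GRCm38). Replicate libraries differed by more than sampling noise (chi-square per degree of freedom 2.21 to 4.23).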

Additional observations from a re-analysis of the deposited data

Results flagged for a closer look

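The genotype effect differed between Retnlg-low and Retnlg-high neutrophils in a test of the difference itself for 3 genes, each in a setting chosen after seeing the data. Without the members of another lineage, Lyz2 had a difference of log2 fold changes of 1.02 and Ear2 of 2.08 (edgeR quasi-likelihood test, Benjamini-Hochberg adjusted p = 0.0392 for both). The Lyz2 difference was -0.17 once the macrophage- and monocyte-rich members were also left out, and the Ear2 difference was -0.17 when the rule was applied after thinning to 1000 UMIs. With the macrophage- and monocyte-rich members also left out, Cd74 had a difference of -1.27 (edgeR, adjusted p = 0.00689). Among all members 0 of 6480 genes passed this test.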

How the results depend on the processing

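Calls rested on few libraries and on which members entered. Leaving out 1 library at a time, the number of genes called was 0 to 37 for radiation, 0 to 9 for genotype, 0 to 45 for knockout-labelled against sham, 0 to 22 for the difference of radiation effects and 0 to 3 for that of genotype effects. In the same order, the counts were 4, 5, 7, 0 and 0 with DESeq2, 114, 27, 109, 46 and 19 with no filter on low counts, 0, 0, 1, 0 and 0 at a 5% mitochondrial limit, 0, 4, 11, 4 and 2 with the rule applied after thinning to 1000 UMIs, 0, 3, 18, 0 and 2 without members of another lineage, 0, 14, 2, 0 and 1 with macrophage- and monocyte-rich members also left out, and 0, 1, 1, 0 and 0 with each member thinned. Without TMM they were 1, 1, 1, 0 and 0, without scored doublets 2, 1, 2, 0 and 0, at 30 or more S100 UMIs 2, 0, 2, 0 and 0, and at fewer than 2 C1q UMIs 1, 1, 0, 0 and 0. Fitting only the 4 libraries compared gave 3, 3 and 0. The fit with a replicate block gave 2, 3 and 6; the numbers share only a number, since same-numbered deviations correlated at 0.259, 0.0316 and -0.0284 between groups. Share differences (percentage points) were -0.0492 for radiation, -0.802 with the rule thinned, 4.56 as a share of neutrophils and -0.285 to 0.186 leaving out 1 library. For genotype they were 0.295, then -0.341 at the 5% limit, 0.991 thinned, 0.0460 at the lower C1q limit, -6.48 of neutrophils and 0.0790 to 0.511. No test accompanies a share with 1 library in an arm.

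Signs turned for Atf3 in radiation (0.070 with the thinned rule, 0.13 without another lineage, 0.45 with macrophage-rich members also out, 0.25 with thinned members). In genotype they turned for Lyz2 (-0.16), Cd63 (0.11) and Cd74 (-1.81 to 0.50 leaving out 1 library, 0.50 being without irradiated wild-type library 2), and against sham for F13a1 (-0.081) and Rps19 (-0.019) with the thinned rule. In the differences between classes they turned for Cd74 (-0.45 to 2.71) and H2-Ab1 (-0.79 to 2.79) in the radiation effect leaving out 1 library. In the genotype effect they turned for Lyz2 (-0.17) with macrophage-rich members out, for Ear2 (-0.17), Ms4a6c (-0.16) and Cd74 (0.038) with the thinned rule, and for Cd74 (-2.24 to 0.92 leaving out 1 library), the turned signs coming without that library. The causes were not tested. Of the other gene values under alternatives, 1151 kept direction and side of the threshold, 86 newly passed and 23 no longer passed.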

Other observations

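Mitochondrial transcripts lay lower in the knockout-labelled libraries within the Retnlg-low neutrophils. With members of another lineage and macrophage- and monocyte-rich members left out, a setting chosen after seeing the data, 12 genes passed as lower in the genotype comparison by edgeR with Benjamini-Hochberg adjustment, and 9 of them were encoded by the mitochondrial genome, with log2 fold changes of -1.35 to -0.97. Of 11 mitochondrial genes tested there, 11 were lower at an unadjusted p under 0.05 (median -1.13), where 3.97% of all 1636 genes tested were, and 0.733% were called lower. Among all members 6 of 13 were lower in unadjusted terms (1.67% of all genes) and 0 higher (median -0.48), and none passed after adjustment. Retnlg-high neutrophils had 11 of 13 lower in unadjusted terms (4.35% of all genes; median -0.58). The rule limits mitochondrial UMIs to 10% per cell in every library, and the members' median mitochondrial share was 2.46% and 2.12% in the sham, 3.16% and 3.72% in the irradiated wild-type and 2.04% and 1.57% in the knockout-labelled libraries. Genotype, RNA quality and cell handling cannot be told apart here.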
